A study of Mus musculus with 4 samples.

Results

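The 8 genes described here encode enzymes that remove or prevent RNA-DNA hybrids: Rnaseh1, the RNase H2 subunit genes Rnaseh2a, Rnaseh2b and Rnaseh2c, the helicase genes Aqr, Dhx9 and Ddx5, and the topoisomerase gene Top1. They were picked by name for what their proteins do, and each was found by matching Ensembl gene IDs to GENCODE mouse symbols. All 8 are among the 12390 genes of the deposited table, and all 8 had the mean of at least 1 RPKM that left 11742 genes for testing. RPKM is a read count divided by transcript length and by library size.

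RNA came from hematopoietic stem cells (Lin-Sca-1+c-Kit+CD48-CD150+) sorted out of mouse bone marrow, about 5000 per library. The 2 knockout libraries came from Ddx21 floxed mice with the transgene CAG-CreERT2, which encodes a tamoxifen-dependent recombinase behind a broadly active promoter. The 2 control libraries came from mice with the floxed alleles and no Cre, and the labels give them as WT. Both groups therefore carry the floxed locus, written Ddx211fl/fl in the design text and Ddx21 in the sample titles. CAG is active in most tissues, so deletion in such a model is not restricted to blood cells. No source used here gives the tamoxifen dosing, the age of the mice or the floxed exons. Whether each library is a separate animal is also not stated, and p-values therefore measure only how far these samples lie apart, a spread that may be technical.

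An R-loop forms when a nascent transcript pairs again with its DNA template and displaces the other DNA strand. RNase H enzymes cut the RNA of such a hybrid, helicases unwind it, and topoisomerase I relaxes the negative supercoils behind RNA polymerase that favour it. Unresolved R-loops can block replication forks and lead to DNA breaks. DDX21, the helicase targeted here, unwinds R-loops in human cells, in addition to its roles in ribosomal RNA processing and transcription. The comparison therefore asks whether RNA of the other R-loop enzymes differs in stem cells from the Ddx21 knockout.

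Reads recovered from the RPKM steps over listed genes with a known length numbered 43256435 and 43217749 in knockout replicates 1 and 2. They numbered 55719375 and 62871403 in control replicates 1 and 2. The library sizes implied by those steps were 43541617 and 43631033 reads in knockout, and 56030609 and 63173270 reads in control. Ddx21 stood at 6.20 and 6.60 RPKM in the knockout libraries, against 10.95 and 12.1 RPKM in the control libraries. The knockout mean was 0.555 of the control mean as deposited, so much of this RNA remained, and how far the gene was deleted was not tested. Its log2 fold change was -0.76 (SE 0.30, adjusted p = 0.158). After TMM scaling it was -1.07 (adjusted p = 0.0956), and voom with TMM scaling gave an adjusted p of 0.0303. TMM scaling sets the libraries to a common level for their middle genes. Over the tested genes the median log2 difference was 0.31 as deposited and 0.017 after TMM scaling, and the gene median of knockout replicate 2 alone stood 0.50 above the control mean. Of the 10 stem cell markers examined, 9 were analysed, with a summed level of 303 and 386 RPKM in the knockout libraries and 198 and 247 RPKM in the control libraries. The 10 neutrophil and granulocyte progenitor markers summed to 48699 and 31358 RPKM in the knockout libraries and to 68932 and 71457 RPKM in the control libraries, and all 10 fell (0.86% of all genes were called lower). The 8 analysed osteoblast and stroma markers summed to 6338 and 1589 RPKM in the knockout libraries and to 450 and 262 RPKM in the control libraries, and all 8 rose (3.33% of all genes were called higher). After TMM scaling 0 markers of either list were called, with median log2 fold changes of -1.33 and 2.77 for the neutrophil and osteoblast lists, and voom with TMM called 1. The deposited table held 4 of the 7 B cell markers, which summed to between 18.6 and 40.3 RPKM per library. Of the 7 T and NK cell markers it held only Nkg7, while Cd3e, Cd3d, Cd3g, Cd4, Cd8a and Ncr1 were absent. Nkg7 had 884 and 750 RPKM in the knockout libraries and 1228 and 1324 RPKM in the control libraries. It fell (log2 fold change -0.65, adjusted p = 0.00399), but with the other markers absent it does not measure T or NK cells. The 5 analysed megakaryocyte markers summed to 486 and 773 RPKM in the knockout libraries and to 375 and 339 RPKM in the control libraries, and 3 of them rose. The 8 erythroid markers summed to 849 and 453 RPKM in the knockout libraries and to 972 and 473 RPKM in the control libraries, and 1, Hbb-bs, fell. None of these calls held after TMM scaling. The part of these cells in the results below was not tested. In bulk RNA, fewer cells of a type and less RNA per cell cannot be told apart.

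Of the 8 enzymes, 0 were called at an adjusted p under 0.05, where 4.19% of all tested genes were called, 3.33% higher and 0.86% lower in the knockout libraries. Their adjusted p-values lay between 0.350 and 0.962, and the count of members with an unadjusted p under 0.05 was 0, where 16.2% of all genes had one. After TMM scaling it was 1 of 8, against 15.9% of all genes. The count was also 0 of 8 after TMM scaling, which called 0.00852% of all genes and gave the members adjusted p-values between 0.306 and 0.950. It was 0 of 8 with voom and TMM on recovered reads, which called 0.622% of all genes. The median log2 fold change of the 8 was 0.21, against 0.31 for all genes. After TMM scaling it was -0.12, against 0.017 for all genes. In both scalings 1 of the 8, Rnaseh1, lay above the median of all genes. These are descriptions of a short list chosen for its function, and its median carries no test.

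**Figure D1:**
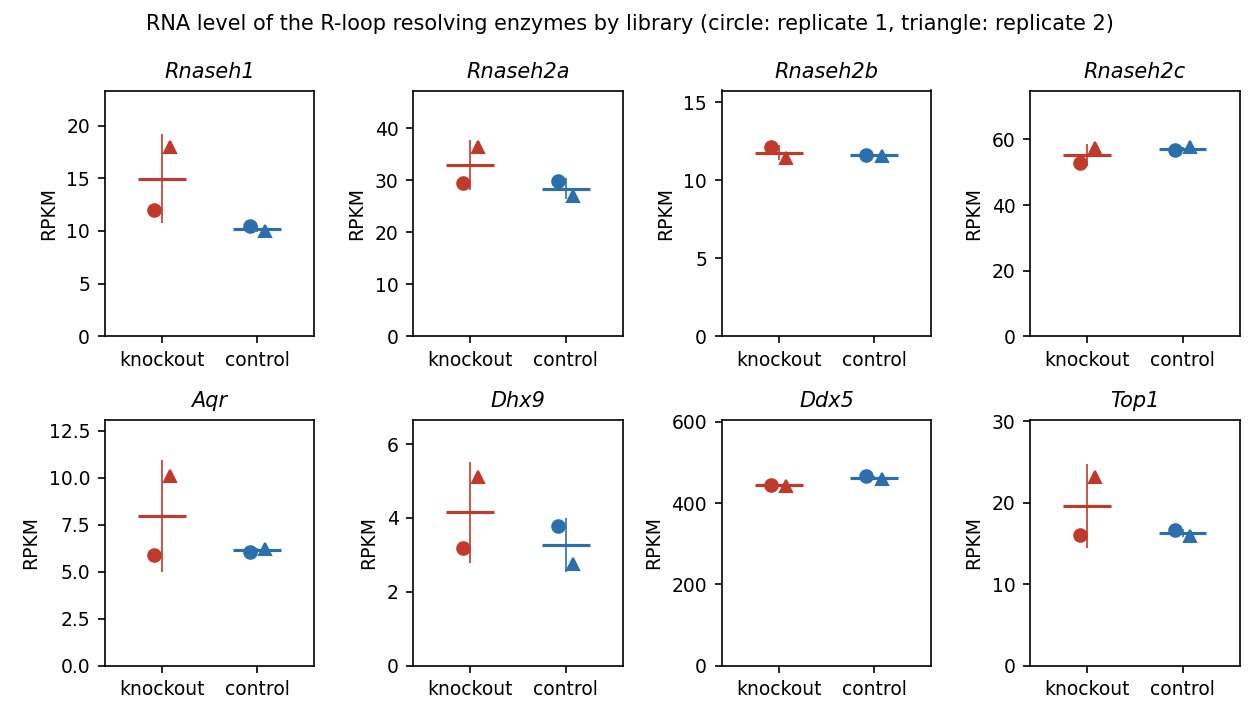
RNA level of each enzyme in RPKM (vertical axis, from 0) in the knockout libraries (red, left) and the control libraries (blue, right); circles are replicate 1, triangles replicate 2, horizontal bars group means and vertical lines SDs (n = 2 per group). Knockout replicate 2 is the highest library for Rnaseh1, Rnaseh2a, Aqr, Dhx9 and Top1, while Rnaseh2b, Rnaseh2c and Ddx5 lie close together in all 4 libraries.

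Rnaseh1 (ENSMUSG00000020630, chromosome 12, 28649602 to 28659589, plus strand, mm10) encodes RNase H1, a nuclease of nucleus and mitochondria that cuts long stretches of RNA in hybrids and is needed to maintain mitochondrial DNA. It had 11.9 and 17.9 RPKM in knockout replicates 1 and 2, against 10.5 and 10.004 RPKM in control replicates 1 and 2. Both knockout libraries lay above both control libraries, but the knockout libraries differed from each other by more than replicate 1 differed from the controls. The means were 14.9 ± 4.24 RPKM in knockout and 10.2 ± 0.319 RPKM in control (SD, n = 2 each), and the log2 difference was 0.48 (SE 0.27, 95% interval -0.050 to 1.01, adjusted p = 0.350). This was the largest fold change among the 8, and 77.7% of all tested genes had a lower one. After TMM scaling the values were 12.2 and 13.7 RPKM in knockout and 11.6 and 11.5 RPKM in control. The order of the groups held there, with a log2 fold change of 0.15 (adjusted p = 0.515).

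RNase H2 is a complex of a catalytic subunit, encoded by Rnaseh2a, and the accessory subunits encoded by Rnaseh2b and Rnaseh2c. It cuts hybrids and also removes ribonucleotides left in DNA by replication, and mutations in any of its subunit genes cause Aicardi-Goutieres syndrome in humans. Rnaseh2a (ENSMUSG00000052926, chromosome 8, 84956610 to 84969767, minus strand) had 29.5 and 36.4 RPKM in knockout replicates 1 and 2, against 29.8 and 26.9 RPKM in control replicates 1 and 2. Knockout replicate 1 fell between the control libraries, so the groups overlapped. The log2 fold change was 0.20 (SE 0.21, 95% interval -0.22 to 0.62, adjusted p = 0.546) in the deposited values and -0.14 (adjusted p = 0.573) after TMM scaling, so its sign rests on the scaling.

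Rnaseh2b (ENSMUSG00000021932, chromosome 14, 62292589 to 62372992, plus strand), whose protein ties the complex to the replication clamp PCNA, had 12.1 and 11.4 RPKM in the knockout libraries and 11.6 and 11.6 RPKM in the control libraries. The control libraries lay inside the knockout range. Rnaseh2c (ENSMUSG00000024925, chromosome 19, 5601873 to 5607019, plus strand), which encodes the small subunit that binds the B subunit, had 52.9 and 57.5 RPKM in the knockout libraries and 56.8 and 57.6 RPKM in the control libraries. Its groups overlapped as well. The log2 fold changes were 0.021 for Rnaseh2b (SE 0.27, 95% interval -0.52 to 0.56, adjusted p = 0.962) and -0.052 for Rnaseh2c (SE 0.19, 95% interval -0.43 to 0.32, adjusted p = 0.853). Both stood below the median of all genes, by 0.29 and 0.36 on the log2 scale. After TMM scaling Rnaseh2b had 12.4 and 8.75 RPKM in the knockout libraries and 12.8 and 13.4 RPKM in the control libraries, a log2 fold change of -0.30 (adjusted p = 0.413). Rnaseh2c had 54.1 and 44.0 RPKM in the knockout libraries and 62.9 and 66.4 RPKM in the control libraries on that scale. Its TMM-scaled log2 fold change of -0.40 (95% interval -0.78 to -0.012) had an unadjusted p of 0.0450 and an adjusted p of 0.306. The 13 proliferation markers, listed because RNase H2 acts at replication, summed to 673 and 937 RPKM in the knockout libraries and to 912 and 929 RPKM in the control libraries. Of the 13, 1 was called lower, Ube2c (log2 fold change -0.59, adjusted p = 0.0170), where 0.86% of all genes were called lower. After TMM scaling 0 of them were called, and their median log2 fold change was -0.50, against 0.017 for all genes. The part of proliferation in the RNase H2 values was not tested.

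A ratio of genes within a library does not depend on how that library was scaled. The ratio of Rnaseh2c to Rnaseh2a was 1.79 and 1.58 in knockout replicates 1 and 2, against 1.91 and 2.14 in control replicates 1 and 2, lower in both knockout libraries. Ratios of Rnaseh2c to other tested genes were lower without overlap for 67.1% of genes. The ratio of Rnaseh2a to Rnaseh2b was 2.43 and 3.18 in the knockout libraries and 2.57 and 2.33 in the control libraries, and that of Rnaseh2c to Rnaseh2b was 4.36 and 5.03 in the knockout libraries and 4.90 and 4.98 in the control libraries. The groups overlapped for both of these ratios. Rnaseh1 was higher relative to each RNase H2 subunit gene in both knockout libraries. Its ratio to Rnaseh2a was 0.405 and 0.494 in knockout, against 0.351 and 0.372 in control. Its ratio to Rnaseh2b was 0.986 and 1.57 in knockout and 0.901 and 0.864 in control, and its ratio to Rnaseh2c was 0.226 and 0.312 in knockout and 0.184 and 0.174 in control. Ratios of Rnaseh1 to other tested genes separated the groups in this direction for 41.9% of genes and in the opposite one for 15.3%, so the separation is common in these libraries. With 2 libraries a group an exact permutation test cannot reach the threshold, and no p is given for the ratios.

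**Figure D2:**
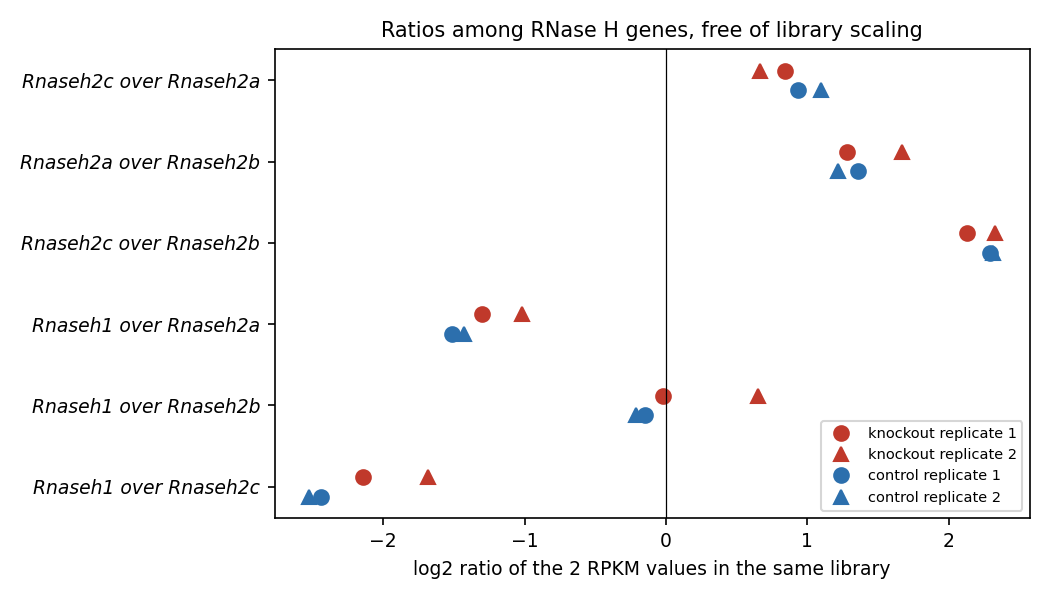
Log2 ratio of RPKM values within the same library (horizontal axis) for pairs of RNase H genes, with knockout libraries in red above control libraries in blue. Rnaseh1 is to the right in both knockout libraries for each of its ratios, with knockout replicate 2 farther right than knockout replicate 1.

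The helicases were examined next. Aqr (ENSMUSG00000040383, chromosome 2, 114101170 to 114187024, minus strand) encodes Aquarius, an intron-binding helicase of the spliceosome whose loss raises R-loop levels in human cells. Dhx9 (ENSMUSG00000042699, chromosome 1, 153455758 to 153487660, minus strand) encodes RNA helicase A, which unwinds RNA and RNA-DNA hybrids. Top1 (ENSMUSG00000070544, chromosome 2, 160645888 to 160722764, plus strand) encodes DNA topoisomerase I. As deposited, these genes and Rnaseh1 had the widest gaps between the knockout libraries among the 8 on the log2 scale. After TMM scaling that order did not hold. There Rnaseh2b had 12.4 and 8.75 RPKM in the knockout libraries, and Top1 had 16.4 and 17.8 RPKM. Promoter sequences of Aqr, Dhx9 and Top1 are shown because of their gaps in the deposited values. They run from 250 bases before to 50 bases after the start, from RefSeq on GRCm38.p6, written 5′ to 3′ on the gene's strand. They span chr2:114175290-114175589 (minus strand) for Aqr, chr1:153487611-153487910 (minus strand) for Dhx9 and chr2:160645647-160645946 (plus strand) for Top1. The Aqr window lies inside the gene span given above, away from its 5′ end at 114187024, so it belongs to another start. The windows of Dhx9 and Top1 cover the 5′ ends of their spans. Of the 8 genes, 6 had an entry in the promoter table, and Rnaseh1 and Rnaseh2b had none. Capitals mark matches on either strand to an ETS core (CCGGAAGT), an E2F site (TTTCGCGC, TTTGGCGC, TTTCCCGC or TTTGCCGC), a CCAAT box (CCAAT), an NRF1 site (GCGCATGCG), a YY1 site (AAGATGGCG) or a TATA box (TATAAA).
Aqr: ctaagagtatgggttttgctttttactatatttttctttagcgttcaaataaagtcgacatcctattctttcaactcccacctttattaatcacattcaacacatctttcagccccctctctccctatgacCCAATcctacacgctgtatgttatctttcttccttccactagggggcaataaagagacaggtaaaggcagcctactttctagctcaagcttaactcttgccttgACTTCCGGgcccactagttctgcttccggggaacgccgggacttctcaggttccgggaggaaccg
Dhx9: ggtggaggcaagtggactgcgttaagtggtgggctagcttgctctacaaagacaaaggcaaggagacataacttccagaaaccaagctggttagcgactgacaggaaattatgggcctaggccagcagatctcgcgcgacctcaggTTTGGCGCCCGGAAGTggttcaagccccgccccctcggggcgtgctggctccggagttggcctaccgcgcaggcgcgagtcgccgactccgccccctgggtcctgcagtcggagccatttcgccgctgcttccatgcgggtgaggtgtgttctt
Top1: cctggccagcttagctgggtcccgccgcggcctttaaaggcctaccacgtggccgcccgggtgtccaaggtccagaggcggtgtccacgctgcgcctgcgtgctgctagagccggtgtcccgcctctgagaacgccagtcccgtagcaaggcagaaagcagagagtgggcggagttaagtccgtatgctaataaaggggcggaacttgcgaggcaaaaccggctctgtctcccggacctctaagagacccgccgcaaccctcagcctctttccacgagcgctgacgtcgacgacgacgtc

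Aqr and Dhx9 each held 1 ETS core, a motif present in 3.89% of the 32851 promoters of the table. Dhx9 held 1 E2F site, present in 2.26% of promoters, directly before its ETS core and without overlap. Aqr held 1 CCAAT box, present in 37.4% of promoters, and the Top1 window held none of these motifs. Of the other members, Rnaseh2a and 1 of the 3 Ddx5 promoters held a CCAAT box, and another Ddx5 promoter held a TATA box, which 13.6% of promoters have. The Rnaseh2c window had no match. Like that of Aqr, the Rnaseh2a window lies inside its gene span, away from the 5′ end. The motif matches are descriptions of letters in these windows and say nothing of which factors bind there.

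Aqr had 5.87 and 10.1 RPKM in knockout replicates 1 and 2, against 6.04 and 6.24 RPKM in control replicates 1 and 2. Knockout replicate 1 was the lowest library and knockout replicate 2 the highest. Dhx9, the least abundant member, had 3.19 and 5.12 RPKM in the knockout libraries and 3.78 and 2.76 RPKM in the control libraries, on 641 to 1032 reads per library. Its control libraries differed from each other by 0.35 on the log2 scale, more than for any other member. The log2 fold changes were 0.29 for Aqr (SE 0.32, 95% interval -0.33 to 0.91, adjusted p = 0.555) and 0.26 for Dhx9 (SE 0.34, 95% interval -0.40 to 0.92, adjusted p = 0.611). After TMM scaling they were -0.022 and -0.023, with adjusted p-values of 0.947 and 0.950. The TMM-scaled intervals were -0.38 to 0.33 for Aqr and -0.41 to 0.37 for Dhx9.

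Ddx5 (ENSMUSG00000020719, chromosome 11, 106780355 to 106789185, minus strand) encodes p68, a DEAD box helicase that unwinds hybrids and also takes part in splicing, transcription and microRNA processing. It was by far the most abundant member. It had 444 and 443 RPKM in the knockout libraries, against 465 and 459 RPKM in the control libraries. The knockout libraries were nearly equal and both lay below the controls, a small difference with on the log2 scale -0.060 (SE 0.16, 95% interval -0.38 to 0.26, adjusted p = 0.801). After TMM scaling the knockout libraries had 454 and 339 RPKM and the control libraries 515 and 529 RPKM, a log2 difference of -0.41 (SE 0.30, 95% interval -1.14 to 0.32, adjusted p = 0.500). Quantile normalization gave 0.13, so the direction rests on the scaling. The gene Ddx17 encodes p72, the paralog of p68, and had 9.84 and 14.6 RPKM in the knockout libraries and 8.94 and 6.83 RPKM in the control libraries. The ratio of Ddx5 to Ddx17 was 45.1 and 30.4 in knockout, against 52.0 and 67.2 in control, lower in both knockout libraries, as were the ratios of Ddx5 to 63.1% of all other tested genes.

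Top1 had 15.97 and 23.2 RPKM in knockout replicates 1 and 2, against 16.7 and 15.97 RPKM in control replicates 1 and 2. Knockout replicate 1 lay at the level of control replicate 2, and knockout replicate 2 above all others. The log2 fold change was 0.23 (SE 0.24, 95% interval -0.25 to 0.71, adjusted p = 0.549), and -0.11 (adjusted p = 0.639) after TMM scaling.

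**Figure D3:**
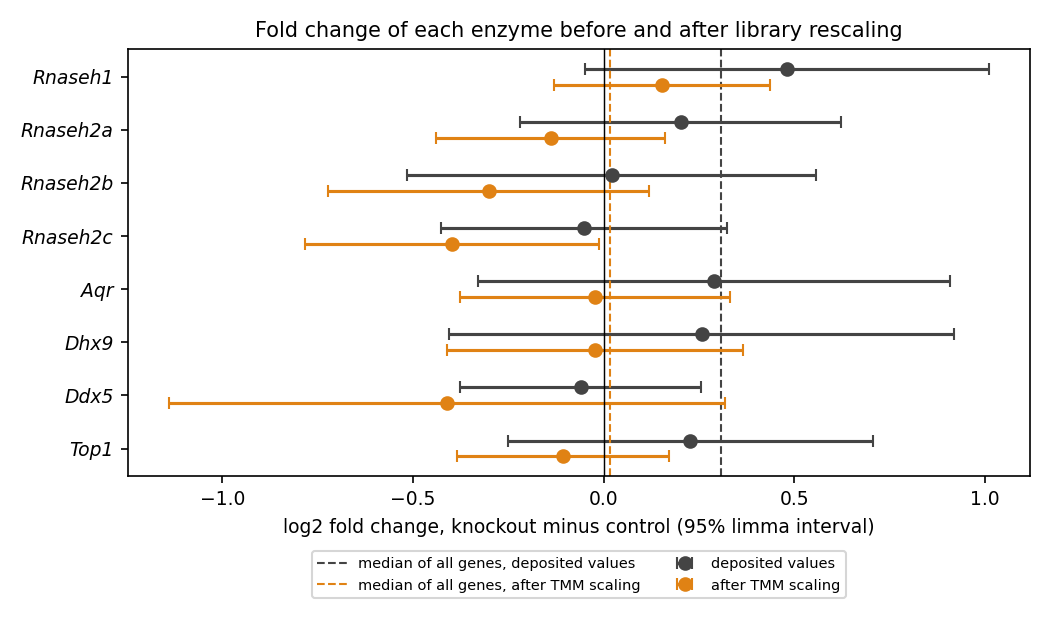
Log2 fold change, knockout minus control (horizontal axis), of each enzyme with its 95% limma interval, in the deposited values (grey) and after TMM scaling (orange); dashed lines mark the median of all tested genes, 0.31 and 0.017. Of the 16 intervals, 15 include 0, the exception being Rnaseh2c after TMM scaling, and Rnaseh1 alone lies to the right of the dashed line of its own colour.

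The knockout libraries gave different pictures of the members. Set against the control mean on the log2(RPKM + 1) scale, the median of the 8 was -0.023 in knockout replicate 1 and 0.42 in knockout replicate 2, while the medians of all genes were 0.12 and 0.50. In knockout replicate 1 the members lay between -0.11 for Rnaseh2c and 0.21 for Rnaseh1. In knockout replicate 2 they split. Rnaseh1 (0.75), Aqr (0.63), Dhx9 (0.53), Top1 (0.48) and Rnaseh2a (0.35) stood above the controls, while Rnaseh2c (0.0074), Rnaseh2b (-0.017) and Ddx5 (-0.061) stood near them. Knockout replicate 2 lay above knockout replicate 1 for 6 of the 8 (84.7% of all genes), and after TMM scaling for 4 of the 8 (51.5% of all genes). It was the highest of the 4 libraries for 5 of the 8 members, and for 78.6% of all tested genes, so that position is not particular to these enzymes. After TMM scaling knockout replicate 2 was the highest for 2 of the 8, Rnaseh1 and Aqr, and for 37% of all genes. The groups did not overlap for 1 member in each direction, Rnaseh1 higher and Ddx5 lower, where 55.5% and 7.38% of all genes did the same, 62.9% in all. After TMM scaling, where 54.4% of all genes did not overlap, 1 member was higher without overlap (28.7% of all genes) and 5 were lower without overlap (25.7% of all genes), namely Ddx5, Top1 and the RNase H2 subunit genes.

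**Figure D4:**
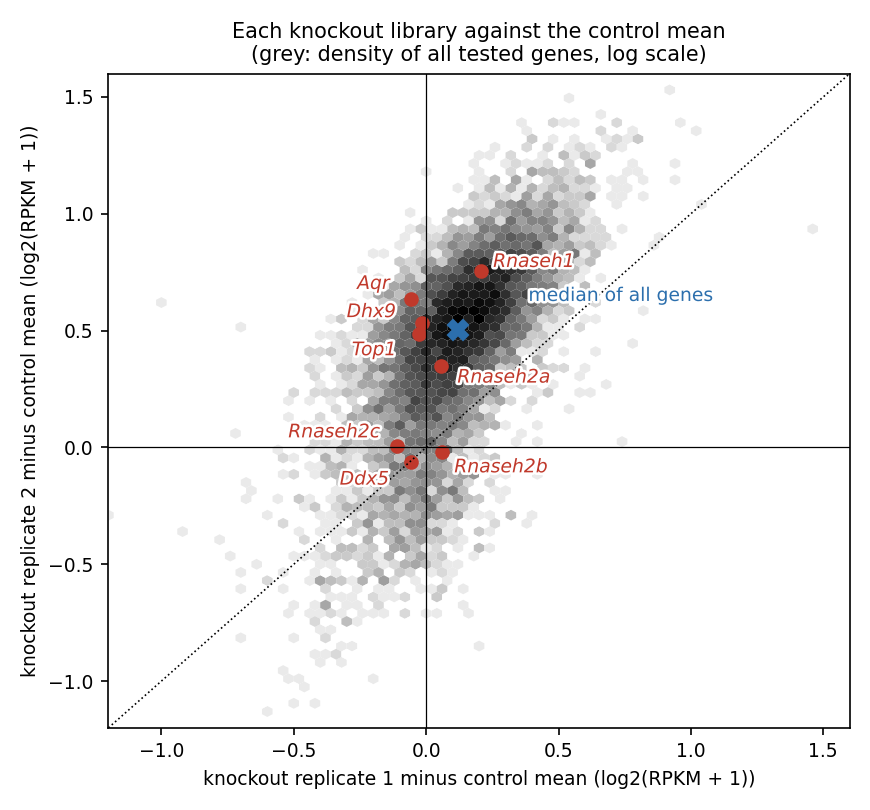
Difference from the control mean in knockout replicate 1 (horizontal axis) and knockout replicate 2 (vertical axis), both on the log2(RPKM + 1) scale; red points are the 8 enzymes, grey hexagons the density of the 11742 tested genes (157 lie outside the axes) the blue cross the median of all genes and the dotted line equal values in both. Rnaseh1, Aqr, Dhx9, Top1 and Rnaseh2a lie between 0.35 and 0.75 on the vertical axis, and Rnaseh2b, Rnaseh2c and Ddx5 between -0.061 and 0.0074.

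Leaving out knockout replicate 1, the library with the most osteoblast RNA, called Rnaseh1 (0.75, adjusted p = 0.0161), Aqr (0.63, adjusted p = 0.0213) and Top1 (0.48, adjusted p = 0.0279) higher. In that setting 54.3% of all genes were called higher, knockout replicate 2 stands alone, and it is assumed to vary as the controls do. With TMM scaling and without knockout replicate 1 these 3 genes were not called, and Ddx5 was called lower (-0.62, adjusted p = 0.0475), where 6.92% of all genes were called lower and 1.38% higher. Without knockout replicate 2 the count was 0 of 8 (0.928% of all genes), and Aqr (-0.056), Dhx9 (-0.017) and Top1 (-0.029) had values close to 0.

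By level per kilobase, Ddx5 (443 to 465 RPKM over the 4 libraries) stood above Rnaseh2c (52.9 to 57.6), Rnaseh2a (26.9 to 36.4), Top1 (15.97 to 23.2), Rnaseh1 (10.004 to 17.9), Rnaseh2b (11.4 to 12.1), Aqr (5.87 to 10.1) and Dhx9 (2.76 to 5.12). Top1 and Rnaseh1, and Rnaseh1 and Rnaseh2b, are neighbours whose ranges over the libraries overlap. The other neighbours in the order did not overlap. Rnaseh1 stood above Rnaseh2b in knockout replicate 2 and below it in the other libraries. Among all listed genes, 98.7% had a lower mean level than Ddx5 and 38.6% a lower one than Dhx9. Ddx5 took 0.160% and 0.161% of the recovered reads in the knockout libraries and 0.168% and 0.166% in the control libraries.

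These levels depend on the transcript length used. The RPKM values match the longest annotated transcript, which for Rnaseh2b is a retained-intron transcript of 4983 bases against 1494 bases for its longest protein-coding transcript. With the protein-coding length, a choice made after seeing the data, Rnaseh2b would stand at 38.2 to 40.4 RPKM, above Rnaseh2a. For Rnaseh1 the lengths are 1970 and 1455 bases, which gives 13.5 to 24.3 RPKM. The other members keep their values or, for Ddx5, move by a factor of 1.01. Fold changes between groups do not depend on these lengths, apart from the added 1 on the log scale. The exons of Rnaseh2c share 426 bases with those of Kat5 on the opposite strand, and the exons of Rnaseh2a share 177 bases with those of Prdx2 on the opposite strand. Rnaseh2a exons also share 339 bases with those of the protein-coding gene Gm49661 on the same strand, where strand cannot separate the reads. No source used here says whether the counting used strand, so reads in the opposite-strand stretches cannot be told apart either.

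The other genes of R-loop control were taken from lists by role. Of 75 tested genes in 9 lists, 1 rose, 0 fell and 74 were not called, a share of 1.33% against 4.19% of all genes, with a median log2 fold change of 0.23. The gene that rose was Ercc5, which encodes XPG, an endonuclease of nucleotide excision repair that also cuts R-loops. Ercc5 had 3.20 and 6.29 RPKM in knockout replicates 1 and 2, against 1.56 and 1.27 RPKM in control replicates 1 and 2. Both knockout libraries lay above both controls, as they did for 55.5% of all tested genes. The log2 difference was 1.20 (SE 0.33, adjusted p = 0.0106). After TMM scaling it was 0.94 (adjusted p = 0.133), short of the threshold. Its list, RPA subunits and processing nucleases, had 9 tested members and a median of 0.26.

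The 18 other R-loop helicases had a median log2 fold change of 0.25 with 0 called. Its smallest p-values belonged to Ddx17 (0.56, adjusted p = 0.314) and Ddx47 (0.33, adjusted p = 0.411). The 6 other topoisomerase genes had a median of 0.20 with 0 called. Tdrd3, a partner of topoisomerase IIIb, had 0.60 (adjusted p = 0.352) and Top3b, which encodes that enzyme, 0.37 (adjusted p = 0.357). The 10 genes of THO, TREX and mRNA packaging, which keep nascent RNA away from its template, had a median of 0.25 with 0 called, with Thoc5 at 0.43 (adjusted p = 0.362) and Srsf2 at -0.25 (adjusted p = 0.409).

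The 4 partners of Aqr in the intron-binding complex had a median of 0.31 with 0 called, with Ppie at 0.38 (adjusted p = 0.323) and Xab2 at 0.32 (adjusted p = 0.413). The 13 partners of RNase H2 in ribonucleotide excision repair had a median of 0.19, with 0 called and 1 above the median of all genes. Their smallest p-values belonged to Pold4 (0.39, adjusted p = 0.428) and Rfc2 (0.21, adjusted p = 0.495), a DNA polymerase delta and a clamp loader subunit gene. The 7 Fanconi and BRCA genes, which protect forks at R-loops, had a median of 0.23 with 0 called, with Brca2 at 0.37 (adjusted p = 0.496) and Palb2 at 0.32 (adjusted p = 0.543). The 3 microprocessor and Dicer genes, partners of p68, had a median of 0.23 with 0 called, with Drosha at 0.41 (adjusted p = 0.457) and Dicer1 at 0.23 (adjusted p = 0.579).

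The genes of Aicardi-Goutieres syndrome and nucleic acid sensing were listed because the RNase H2 genes belong to that syndrome. Of 7 genes in the list 5 were tested, and Trex1 and Lsm11 were not in the deposited table. The 5 tested genes had the highest median of the 9 lists, 0.55, with 0 called. Tmem173, which encodes the DNA sensing adaptor STING, had 17.1 and 21.3 RPKM in the knockout libraries and 14.1 and 10.99 RPKM in the control libraries (log2 fold change 0.58, adjusted p = 0.231). Adar, an RNA editing enzyme gene, had 7.16 and 10.8 RPKM in the knockout libraries and 5.86 and 5.55 RPKM in the control libraries (log2 fold change 0.55, adjusted p = 0.356). Of the 5 genes, 4 were higher in each knockout library than in either control library, as were 55.5% of all genes. Samhd1, with 7.89 and 11.2 RPKM in knockout and 8.11 and 7.27 RPKM in control, overlapped. After TMM scaling the list median was 0.24, against 0.017 for all genes. The medians of the other lists then lay between -0.15 (ribonucleotide excision repair) and 0.029 (microprocessor and Dicer). In the list of Ddx21 itself, its paralog Ddx50 had a log2 fold change of 0.38 (adjusted p = 0.385), and Sirt7, the deacetylase that acts on DDX21 in human cells, 0.21 (adjusted p = 0.541).

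**Figure D5:**
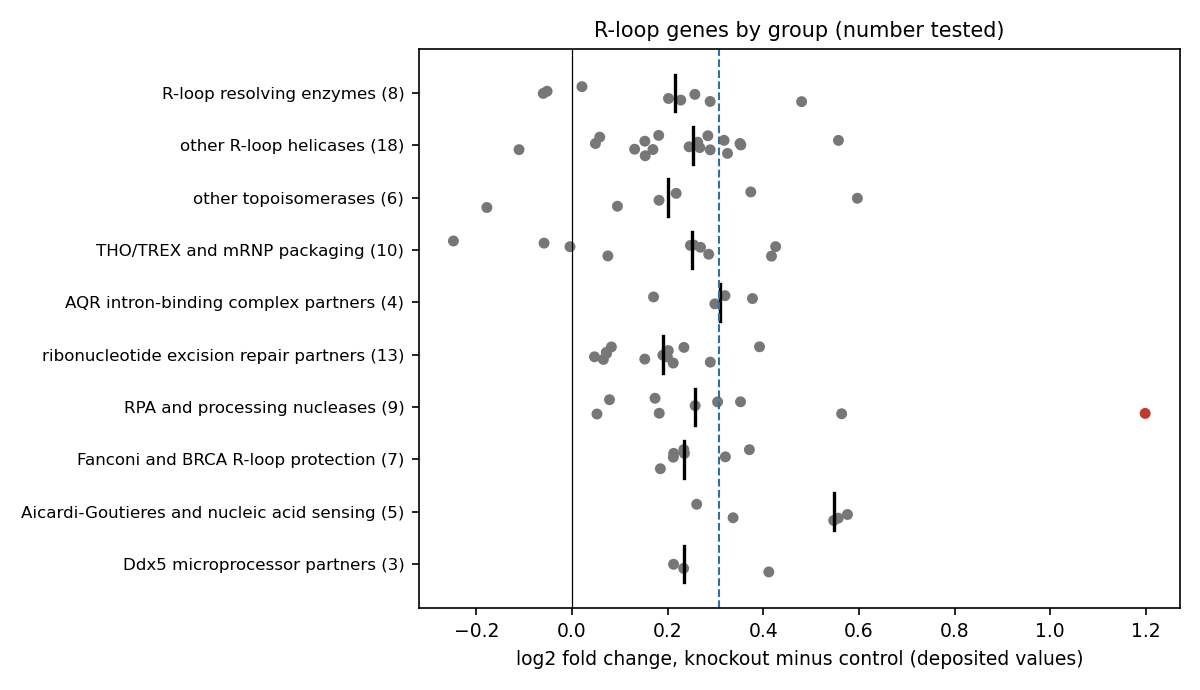
Log2 fold change, knockout minus control (horizontal axis, deposited values), of every tested gene in each group of R-loop genes; points are genes, red where called, black bars are group medians, the dashed blue line is the median of all tested genes (0.31) and the black line is 0. Ercc5 at 1.20 is the one called gene, and the Aicardi-Goutieres and sensing group has the bar farthest to the right, at 0.55.

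For each member other than Rnaseh2a, the protein-coding gene of at least 5 RPKM whose centred log2 values lay closest over the 4 libraries was looked up among 6025 candidates at most. It was Slc9a8 for Rnaseh1, Timm8a1 for Rnaseh2b, Mrpl51 for Rnaseh2c, Tmem63a for Aqr, Dhrs7 for Dhx9, Gdi2 for Ddx5 and Ufm1 for Top1. The Euclidean distances lay between 0.0023 for Ufm1 and 0.039 for Dhrs7 on the log2 scale. Between 17 genes, for Dhx9, and 265 genes, for Rnaseh1, lay within a distance of 0.1, so over 4 libraries a close match is common.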

How the data were processed

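The deposited table gives 1 RPKM value per gene and library for 12390 Ensembl genes, made by the authors from mRNA libraries (Smart-Seq V4). Per the submitters' processing notes the genome was mm10; no source used here names the aligner or counter. The unit was read from the values: RPKM times the longest GENCODE M21 transcript length gave whole reads, within 0.1, for 99.3% to 99.4% of values of at most 1000 reads in each library, on 12384 genes with a length. Symbols were found for 12381 genes. Genes with 0 reads in a library are set to 0.001, and every gene reaches at least 1.0063 RPKM in some library.

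The test was limma 3.58.1 (R 4.3.3) on log2(RPKM + 1) with trended variances, two-sided, over 11742 genes, genotype as sole term, 2 residual degrees of freedom, and Benjamini-Hochberg adjustment over all tested genes. Fold changes understate those of low genes. The prior degrees of freedom were infinite in the deposited values: the trend stood in for the spread of single genes, which makes p-values too small where replicates lie far apart. TMM factors were computed on recovered reads. Replicate libraries differed beyond sampling noise (chi-square per degree of freedom 151 in knockout, 48.5 in control) and were counted singly. The fits were also run on simulated reads with the same dispersion for every gene and no shift between libraries. Such reads cannot test the p-values of these libraries.

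The members, lists and tests were chosen with earlier results of these data known. Named are all members, Ddx21, and in each list called genes or, with none called, the pair with the smallest p. Sirt7, the ratios and Samhd1, named because its groups overlapped, were chosen after values were seen. The closest gene to Rnaseh2a is not reported here.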

Additional observations from a re-analysis of the deposited data

How the results depend on the processing

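No enzyme was called under the other pseudocount, without the filter, without the trend, under any scaling, with voom or with the replicate block. Sign was less stable: of 144 member values under alternatives, 47 changed sign, 93 kept sign and side of the threshold and 4 passed the threshold with the same sign. Rnaseh1 kept its sign throughout. The replicate numbers did not pair the libraries (correlation of replicate differences between groups 0.067), and the replicate block gave 175 genes higher and 64 lower, with Ercc5 not called (0 in its list), but changed no member's call. With 2 libraries a group, the number of libraries limits these tests, and Dhx9 rests on the fewest reads (641 to 1032 per library).

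After TMM scaling 1 gene was higher and 0 lower, with quantile normalization 0 and 0, with equal library medians 0 and 0, and with voom and TMM 51 and 22. In each of these Ercc5's list had 0 called. Without the trend 373 genes were higher and 52 lower. The replicate block with TMM gave 542 higher and 694 lower, with 1 gene called in Ercc5's list. The median of the 8 enzymes was -0.12 with TMM (also with the block), -0.054 with quantile normalization, -0.14 with equal medians and -0.13 with voom and TMM. Relative to all genes (-0.093) it was -0.14 with TMM, with TMM and the block and with pseudocount 0.1, and -0.15 in both voom fits.

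Rnaseh2a stood at -0.14 with TMM, TMM and block, and voom with TMM, -0.024 with quantile normalization and -0.16 with equal medians. Rnaseh2b stood at -0.30 with TMM in both fits, -0.31, -0.34 and, with voom, -0.33. Aqr stood at -0.022 with TMM in both fits, -0.070, -0.069 and -0.017 in the same order. Dhx9 stood at -0.023, -0.10, -0.10 and -0.0092, and Top1 at -0.11, -0.037, -0.13 and -0.12. Ddx5 turned to 0.13 with quantile normalization. Ddx21 was called with voom and TMM (-1.21) and with TMM and the block (-1.07), as 1 call in its list.

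List medians relative to all genes moved as follows. The other helicases (-0.054) had -0.070 with TMM and TMM with block, -0.068 with quantile normalization, -0.089 and -0.087 with voom with and without TMM, -0.090 with pseudocount 0.1 and -0.057 without the filter. The Aqr partners (0.0018) had -0.043 in both TMM fits, -0.050 and -0.046 with voom, and -0.041 with pseudocount 0.1. RPA and processing nucleases (-0.050) had -0.098 in both TMM fits and with pseudocount 0.1, 0.026 with quantile normalization, and -0.11 in both voom fits. Other topoisomerases had -0.17 with quantile normalization and microprocessor genes 0.051 with voom and TMM.

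Leaving out each library, with and without TMM, gave 0 to 6381 genes higher and 0 to 812 lower, 0 to 3 enzymes higher and 0 to 1 lower. The enzyme median ranged from -0.18 to 0.42, and from -0.19 to -0.066 relative to all genes. Fold changes ranged from 0.076 to 0.75 for Rnaseh1, -0.20 to 0.35 for Rnaseh2a, -0.53 to 0.059 for Rnaseh2b, -0.54 to 0.0074 for Rnaseh2c, -0.18 to 0.63 for Aqr, -0.18 to 0.53 for Dhx9, -0.62 to -0.050 for Ddx5, -0.16 to 0.48 for Top1 and -1.21 to -0.69 for Ddx21. Calls ranged from 0 to 11 for other helicases, 0 to 2 for topoisomerases, 0 to 5 for mRNA packaging, 0 to 2 for Aqr partners, 0 to 3 for ribonucleotide excision, 0 to 6 for processing nucleases, 0 to 5 for Fanconi and BRCA, 0 to 4 for sensing, 0 to 2 for microprocessor and 0 to 2 for the Ddx21 list. Their medians relative to all genes ranged, in the same order, from -0.082 to -0.042, -0.16 to -0.057, -0.16 to -0.046, -0.11 to 0.041, -0.29 to -0.054, -0.13 to -0.035, -0.14 to 0.033, 0.095 to 0.25, -0.14 to 0.12 and -0.29 to 0.049. The highest counts came without knockout replicate 1. The cause of these shifts was not tested.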
